A study of Homo sapiens with 20 samples.

Results

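The genes encoding mitochondrial ribosomal proteins were examined for binding of RNA polymerase II (POL2) and of the transcription factor c-Myc (MYC) at their promoters in a prostate cancer cell line with and without the kinase gene SLK. Members were the protein-coding genes of GENCODE release 44 whose symbol is MRPL or MRPS followed by a number and an optional letter. The rule found 78 of 20046 protein-coding genes, 49 with an MRPL symbol (large subunit) and 29 with an MRPS symbol (small subunit). MRPS30 and MRPS18A carry small-subunit symbols although their proteins are known to sit in the large subunit.

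The mitochondrial ribosome translates the few proteins encoded by mitochondrial DNA, which are core subunits of the respiratory chain and ATP synthase. Its RNAs are transcribed inside the organelle, but all its proteins are encoded in the nucleus, transcribed by POL2, made in the cytosol and imported. MYC, with its partner MAX, binds promoters through the E-box CACGTG and related sequences, and genes for ribosome production and mitochondrial function are among its known targets.

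The cells were PC-3, an established human prostate cancer line. Wild-type (WT) cells were set beside SLK-knockout (SLK-KO) cells, which carry the further name PSD10 in the labels. Whether PSD10 is a single clone is not given in the sources used here. No treatment was given to either group. Chromatin immunoprecipitation and sequencing (ChIP-seq) was done with an antibody to MYC and another to POL2, in 3 libraries per genotype and antibody that are called biological replicates. Of 20 samples, the 12 MYC and POL2 libraries had a summit list, which gives the position of the highest point of each called peak and a score. The 2 Input and 6 IgG samples did not enter the analysis.

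The MYC lists held 365, 201 and 267 summits in WT replicates 1 to 3 and 1218, 1420 and 988 in SLK-KO. The POL2 lists held 17126, 5047 and 9925 summits in WT and 19017, 15436 and 16298 in SLK-KO. Read depth is unknown, so a longer list and a deeper or cleaner library cannot be told apart. SLK itself had a POL2 summit in WT replicates 1 and 3 and in all 3 SLK-KO libraries, and no MYC summit in any. A summit list does not show whether the SLK product was lost, so it does not check the genotype. A gene was counted as bound when a summit lay within 1000 bp of any of its transcription start sites (TSS). The share of genes bound has no p-value over a chosen list, and 3 libraries against 3 cannot give an exact p below 0.1 for any single gene.

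MYC was found at few mitochondrial ribosomal protein genes in WT cells and at more in SLK-KO cells. In WT replicates 1, 2 and 3, 4, 3 and 1 of the 78 genes had a MYC summit, a mean of 3.42% ± 1.96 (SD, n = 3 libraries). In SLK-KO the counts were 10, 13 and 10, a mean of 14.1% ± 2.22 (SD, n = 3 libraries). Every SLK-KO library lay above every WT library, by 10.7 percentage points on average. Over the 72 members with POL2 in at least 1 library the means were 3.70% in WT and 15.3% in SLK-KO. Other protein-coding genes with POL2 in at least 1 library, 10706 in number, went from 2.59% ± 0.715 to 10.1% ± 1.56 (SD, n = 3 libraries each), a difference of 7.46 points with ranges that also did not overlap. When every MYC list was shortened to its 201 best-scored summits, the members bound were 3, 3 and 1 in WT and 3, 2 and 6 in SLK-KO. These ranges overlapped, at 2.99% ± 1.48 and 4.70% ± 2.67 (SD, n = 3 libraries each), while other POL2-bound genes stood at 1.94% ± 0.0421 and 1.83% ± 0.0247. In the whole lists, list length and genotype cannot be told apart.

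**Figure D1:**
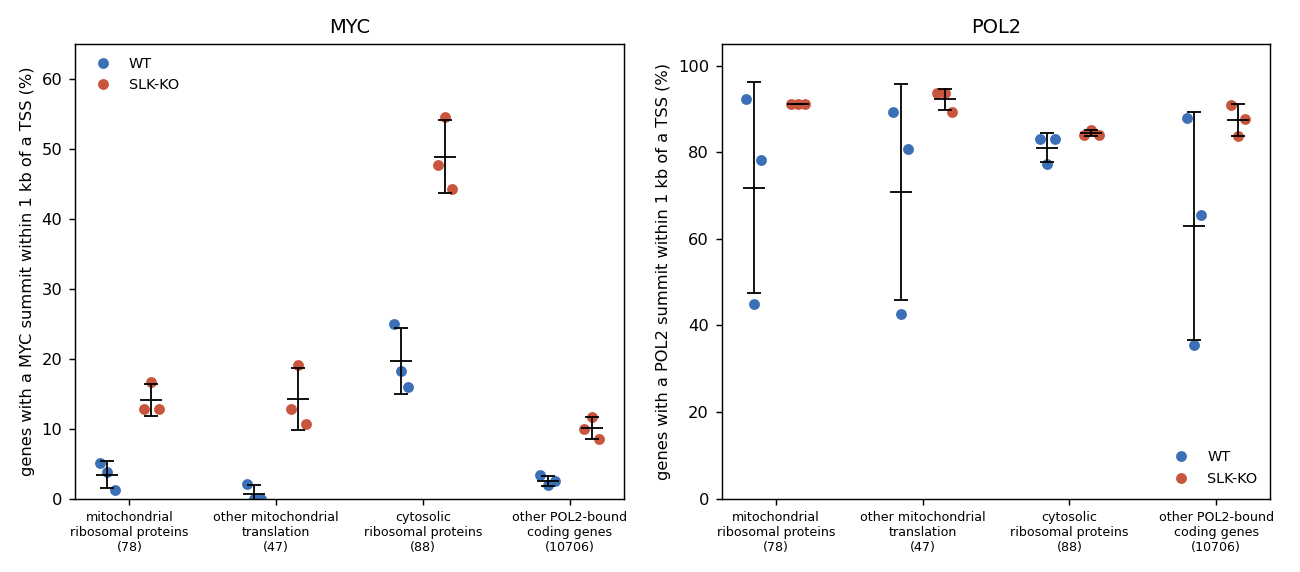
Percent of genes with a MYC summit (left) or POL2 summit (right) within 1000 bp of a TSS, for 4 gene sets whose sizes stand in brackets. Points are single libraries, horizontal bars the mean and error bars the SD over 3 libraries; MYC shares of the mitochondrial ribosomal protein genes lie at 1.28% to 5.13% in WT and 12.8% to 16.7% in SLK-KO, and their POL2 shares reach from 44.9% to 92.3% in WT.

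Over all 6 MYC libraries, 19 of the 78 genes had a MYC summit in at least 1. All 19 were among the 72 members with POL2 in at least 1 library, of which they were 26.4%, beside 17.7% of all 10778 POL2-bound protein-coding genes. At least 2 libraries held MYC at 9 members, 12.5% of the 72, beside 9.25% of all POL2-bound genes. No member had MYC in all 6 libraries, which 0.909% of POL2-bound genes did. As a share of the protein-coding genes bound by MYC, members were 1.09%, 1.44% and 0.358% in WT and 0.910%, 1.02% and 1.07% in SLK-KO, against 0.668% of all POL2-bound genes. The 1 library below that share, WT replicate 3, held a single bound member.

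In WT, 5 large-subunit genes were bound, each of them also in all 3 SLK-KO libraries: MRPL3, MRPL4, MRPL24, MRPL42 and MRPL48. No member was bound in WT and in no SLK-KO library, beside 0.445% of POL2-bound genes. MRPL3, MRPL4 and MRPL24 encode proteins with bacterial counterparts. The MRPL4 protein is known to reach into the wall of the tunnel through which the new chain leaves. MRPL42 and MRPL48 encode proteins added in mitochondria, the latter part of the central protuberance.

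A stretch of 30 bases near these summits is shown for the 5 genes bound in both genotypes and for MRPL12. Each is the GRCh38 reference sequence on the gene's own strand, 5′ to 3′, with CACGTG or its variant CACGCG (also read as CGCGTG on the other strand) in capitals. Windows with a motif are centred on it, and need not hold a summit. The others are centred on the median summit. Other forms of the E-box were not searched and stay in lower case.
MRPL3, chr3:131502888-131502917, minus strand: ggctactgcgtcCACGTGgcggtggcgtgg
MRPL48, chr11:73787998-73788027, plus strand: gtagattccacgCACGCGgggcgcggggag
MRPL4, chr19:10252162-10252191, plus strand: gtagggcggcgtCGCGTGcgtgacgtcatc
MRPL12, chr17:81703462-81703491, plus strand: ctcccggggaacCGCGTGtgaccttccagc
MRPL24, chr1:156741085-156741114, minus strand: ggcgggggaggggacgctgagggcccatgt
MRPL42, chr12:93467700-93467729, plus strand: agaagagccggcatgtggctgcgcgtttct
The MRPL3 and MRPL12 windows lie in the 5′ untranslated part of exon 1. Those of MRPL48 and MRPL42 lie in an intron of the canonical transcript, that of MRPL4 lies just upstream of the canonical TSS, and that of MRPL24 spans it.

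MRPL3 (ENSG00000114686.9, GRCh38 chr3:131462212-131502983) had MYC summits at rank 145 of 365 in WT replicate 1, 46 of 201 in WT replicate 2, and 153, 103 and 34 in SLK-KO replicates 1 to 3, rank 1 being the best score of a list. WT replicate 3 had none. The WT summits lay 90 and 84 bp downstream of the canonical TSS and the SLK-KO summits 48, 54 and 66 bp downstream. The centre of the E-box, at 68.5 bp, fell between the summits of the genotypes. This difference in position, between 2 WT and 3 SLK-KO summits, was not tested or set beside other MYC-bound genes. MRPL24 (ENSG00000143314.12, chr1:156737303-156741590) ranked 84 and 109 in WT replicates 1 and 2 and 38, 204 and 57 in SLK-KO. It was the best-ranked member in WT replicate 1 and in SLK-KO replicate 1. Its summits lay between 38 bp upstream and 42 bp downstream of the canonical TSS, with neither CACGTG nor CACGCG within 100 bp of any.

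MRPL48 (ENSG00000175581.14, chr11:73787872-73865133) ranked 161 and 163 in WT replicates 1 and 3 and 726, 198 and 71 in SLK-KO, and was the single member bound in WT replicate 3. Its WT summits lay 294 and 241 bp downstream of the canonical TSS, farther than the SLK-KO summits at 174, 174 and 160 bp. This difference, between 2 WT and 3 SLK-KO summits, was not tested. How many other MYC-bound genes show such a difference was not counted. CACGCG, centred 138.5 bp downstream of the canonical TSS, was within 100 bp of the 3 SLK-KO summits and of neither WT summit. The summit of WT replicate 3, at 241 bp, lay only just past that limit. MRPL42 (ENSG00000198015.14, chr12:93467514-93516214) ranked 69 in WT replicate 2 and 79, 248 and 61 in SLK-KO. MRPL4 (ENSG00000105364.14, chr19:10251901-10260055) ranked 291 in WT replicate 1 and 506, 579 and 135 in SLK-KO. In rank percentile MRPL4 was the weakest of the 5 in WT.

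MYC was found in SLK-KO libraries only at 14 members, 19.4% of the 72, beside 12.9% of all POL2-bound genes. Of these, 4 had it in at least 2 SLK-KO libraries, 5.56% of the 72 beside 4.96% of all POL2-bound genes, and each of the 4 in exactly 2. MRPS16, a small-subunit protein with a bacterial counterpart, ranked 587 and 200 in SLK-KO replicates 2 and 3. MRPL12, a stalk protein that is also known to bind the mitochondrial RNA polymerase, ranked 1147 and 376 in replicates 1 and 2. Its summits lay 32 and 132 bp downstream of its canonical TSS. They are uncertain as to gene, since both were nearer to the TSS of an overlapping coding model, ENSG00000262660. MRPL17 ranked 679 and 936 in replicates 1 and 2. MRPL1, a protein of the mobile L1 stalk, ranked 958 and 824 in replicates 1 and 3. The other 10 had MYC in a single SLK-KO library: MRPL32, MRPL57, MRPS2, MRPS7, MRPS17, MRPS21, MRPS27, MRPS30, MRPS34 and MRPS35.

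No member had MYC in 3 SLK-KO and 0 WT libraries, a pattern that 1.61% of POL2-bound genes showed, each with an exact two-sided permutation p of 0.1 and an adjusted p of 1. None had it in 3 WT and 0 SLK-KO libraries, which 0% of POL2-bound genes did. The 14 genes bound in SLK-KO only contributed 18 summits, of which 17 ranked past 365, the length of the longest WT list. The exception was MRPS16 at rank 200 in SLK-KO replicate 3. The same share for other genes bound in SLK-KO only was not computed, so it cannot be called particular to the members.

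**Figure D2:**
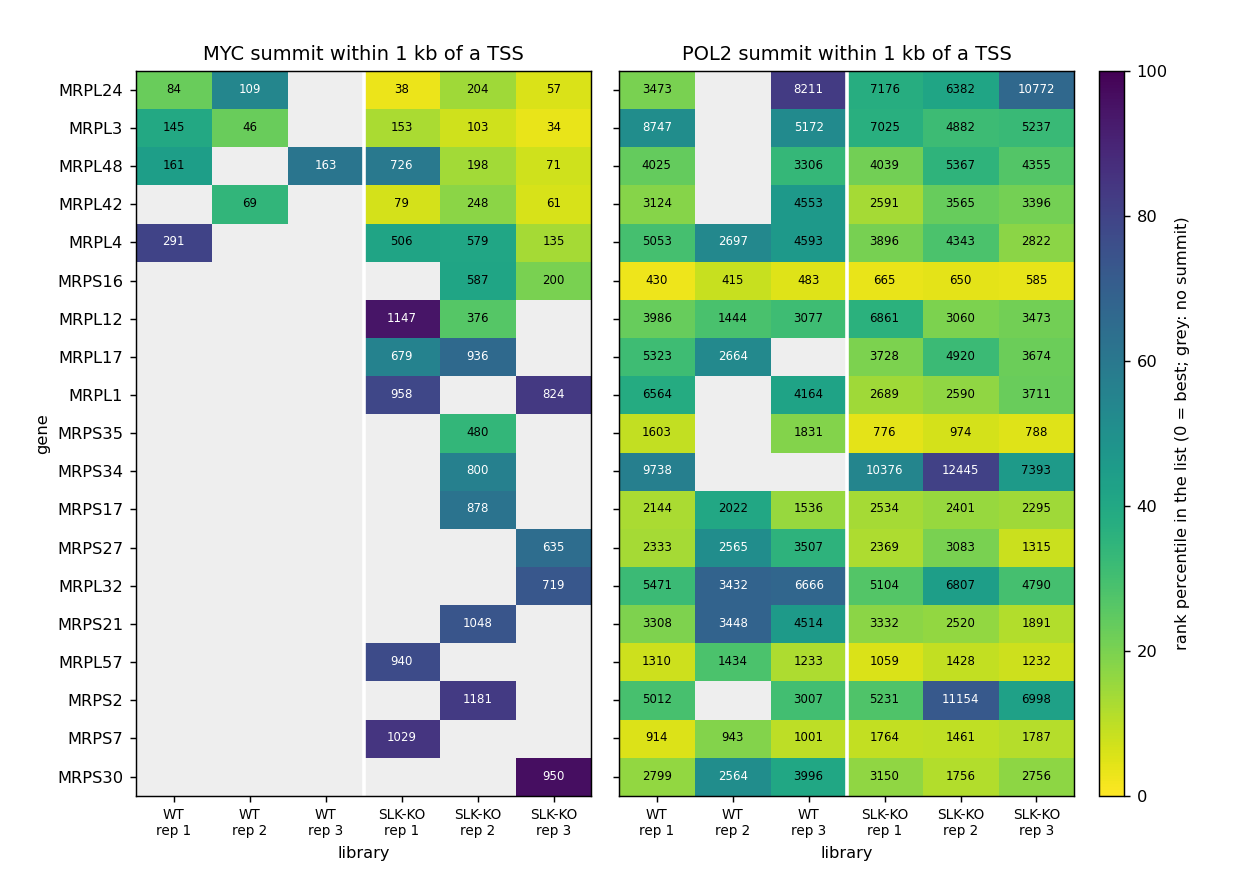
Rank of the best-scored MYC summit (left) and POL2 summit (right) within 1000 bp of a TSS for the 19 genes with MYC in at least 1 library (rows), in each library (columns). Numbers are ranks, colour is the rank as a percentile of the list (0 is best, grey is no summit); the top 5 rows, MRPL24, MRPL3, MRPL48, MRPL42 and MRPL4, are the ones with MYC in WT.

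**Figure D3:**
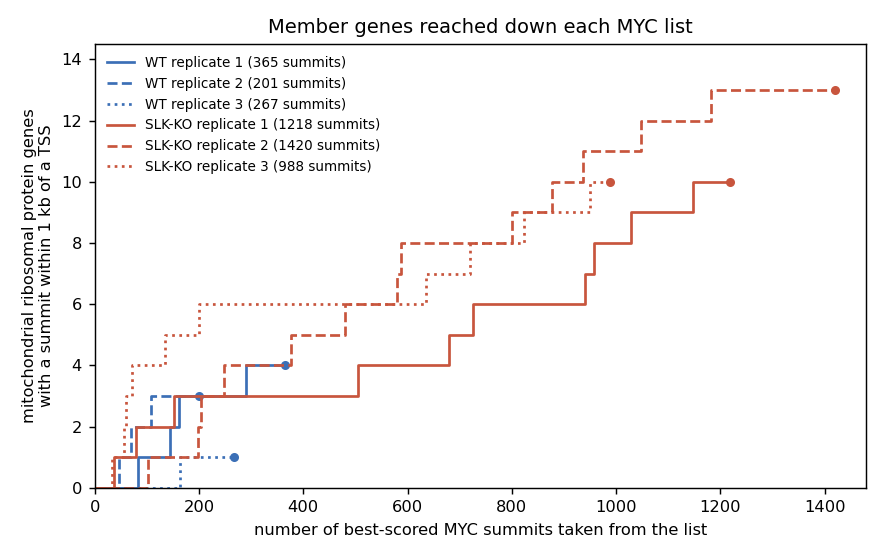
Number of mitochondrial ribosomal protein genes reached (vertical axis) as more of the best-scored MYC summits of a list are taken (horizontal axis, number of summits), 1 line per library ending at the length of its list. At 200 summits the lines of WT stand at 3, 3 and 1 genes and those of SLK-KO at 3, 2 and 6.

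By symbol, 10 of the 49 MRPL genes and 9 of the 29 MRPS genes had MYC in at least 1 library. In WT these were 5 MRPL genes and 0 MRPS genes, and in at least 2 libraries 8 MRPL genes and 1 MRPS gene. This difference between the subunits was not tested. Split by symbol number, 12 of 44 genes of families with a bacterial counterpart and 7 of the 34 others had MYC in at least 1 library. The split goes by number alone and places MRPS24 and MRPS28, for example, among the others, although both are now assigned bacterial counterparts. A neighbouring coding gene started on the opposite strand within 1000 bp at 27 members, or 34.6%, against 15.8% of other POL2-bound genes. Of these 27, 0 had MYC in WT and 6 had it in SLK-KO, each in 1 library. Of the 51 members without such a neighbour, 13 had it in at least 1 library and 9 in at least 2. In at least 1 library this was 22.2% of members with and 25.5% without such a neighbour. Other POL2-bound genes had MYC in at least 1 library at 22.9% with such a neighbour and at 16.6% without. The contrast between members with and without a neighbour was not tested.

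MYC summits sat close to the start of the members. Of the 41 MYC summits, 1 for each bound member in each library, 40 lay within 250 bp of a TSS of the gene. The exception was MRPS30, at 365 bp in SLK-KO replicate 3. Among other MYC-bound coding genes 67.8% to 74.0% lay within 250 bp, depending on the library. The MRPS27 summit lay 11582 bp downstream of the canonical TSS, beside an alternative TSS of that gene. A POL2 summit of the same-numbered library lay within 250 bp of 32 of the 41 summits, 5 of 8 in WT and 27 of 33 in SLK-KO, against 39.6% to 57.5% of other MYC promoter summits. Within 1000 bp it was 38 of 41. The 3 without POL2 there, at MRPL3, MRPL24 and MRPL42, were all in WT replicate 2, whose POL2 list was the shortest.

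The canonical E-box was at 1 gene only among the MYC-bound members. CACGTG lay within 100 bp of 5 of the 41 MYC summits, or 12.2%, and these 5 are the summits of MRPL3 in its 5 bound libraries. In WT it was 1 of 4, 1 of 3 and 0 of 1 member summits (mean 19.4% ± 17.3, SD, n = 3 libraries), and in SLK-KO 1 of 10, 1 of 13 and 1 of 10 (9.23% ± 1.33). Other MYC promoter summits had it at 43.0% ± 2.76 in WT and, in SLK-KO, 30.9% ± 0.461 (SD over 3 libraries each). The Wilson 95% interval for SLK-KO replicate 1 ran from 1.79% to 40.4% for members and overlapped that of the other summits, as it did in every MYC library. At 201 summits per list it was 2 of 7 member summits in WT and 3 of 11 in SLK-KO, beside 233 of 498 and 218 of 472 other promoter summits. CACGCG lay within 100 bp of 1 of 8 member summits in WT (8.33% ± 14.4, SD, n = 3 libraries), beside 34.8% ± 4.37 of other promoter summits. In SLK-KO it lay near 10 of 33 (28.7% ± 15.1), beside 31.7% ± 1.53. At POL2 summits CACGTG was rarer, with a mean of 3.25% in WT and 2.64% in SLK-KO at members and 4.18% and 4.41% elsewhere.

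**Figure D4:**
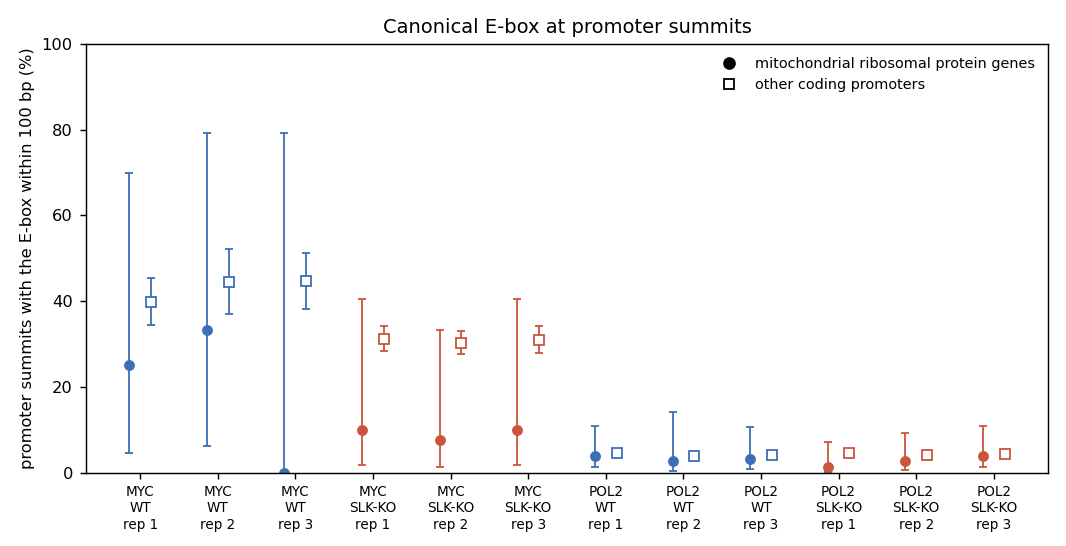
Percent of promoter summits with CACGTG within 100 bp (vertical axis) in each library (horizontal axis), for mitochondrial ribosomal protein genes (filled circles) and other coding promoters (open squares), with Wilson 95% intervals that cover counting error only. The member intervals are wide because the MYC lists hold 1 to 13 member summits each, and they overlap those of the other promoters in all 6 MYC libraries.

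POL2 was found at nearly all of the genes. A POL2 summit lay within 1000 bp of a TSS in at least 1 library at 72 of 78 members, or 92.3%, beside 53.8% of all protein-coding genes. In WT the counts were 72, 35 and 61 (71.8% ± 24.4, SD, n = 3 libraries) and in SLK-KO 71 in each library, or 91.0%. These ranges overlapped, since WT replicate 1 lay above SLK-KO. The mean difference of 19.2 points fell to 5.77 without WT replicate 2, which had the shortest POL2 list, and was 29.5 without WT replicate 1. Other POL2-bound coding genes stood at 62.9% ± 26.3 in WT and 87.4% ± 3.59 in SLK-KO. That set was chosen for POL2 in at least 1 library, while the member shares, also at equal list length, are over all 78. Over the 72 members with POL2 they were 77.8% ± 26.4 in WT and 98.6% in SLK-KO. At 5047 summits per list members stood at 53.8% ± 7.80 and 56.8% ± 0.740, and the other genes at 41.7% ± 5.48 and 44.9% ± 0.320 (SD, n = 3 libraries each).

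All 6 POL2 libraries had a summit at 33 members, 42.3% of the 78 beside 18% of all protein-coding genes, and 45.8% of the 72 beside 33.5% of POL2-bound genes. A further 30 had POL2 in 5 libraries. Of these, 28 lacked it in WT replicate 2 only, and MRPL17 and MRPS5 lacked it in WT replicate 3 only. Another 7, MRPL13, MRPL34, MRPL43, MRPL52, MRPS22, MRPS31 and MRPS34, lacked it in WT replicates 2 and 3. MRPL15 had it in WT replicate 1 and SLK-KO replicates 1 and 3, and MRPL19 in WT replicate 1 and SLK-KO replicate 2. No member had POL2 in 3 SLK-KO and 0 WT libraries, beside 2.87% of POL2-bound genes, or in 3 WT and 0 SLK-KO libraries, beside 0.0186%. In both patterns the exact p of each such gene was 0.1 and its adjusted p 1.

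The best POL2 ranks belonged to MRPS28, MRPS16, MRPL55, MRPL57 and MRPL10, taken by the median rank percentile among the 33 members with POL2 in all 6 libraries, where 0 is the best summit of a list. MRPS35, which had no POL2 summit in WT replicate 2, had a median of 6.31 over the other 5 libraries. MRPS28, a small-subunit protein, stood at percentile 3.26, 10.3 and 13.9 in WT and 3.01, 3.21 and 3.48 in SLK-KO. MRPS16 stood at 2.51, 8.22 and 4.87 in WT and 3.50, 4.21 and 3.59 in SLK-KO. MRPL55 and MRPL57 (mitochondria-specific proteins) and MRPL10 (a stalk-base protein) had medians of 8.10, 8.45 and 9.58. MRPS28 was better placed in all 3 SLK-KO libraries than in any WT library except replicate 1, so its ranges overlapped. MRPS16 ranges overlapped too.

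Across members, the median POL2 percentile was 20.9, 29.4 and 33.3 in WT and 21.4, 24.5 and 22.5 in SLK-KO. Other coding genes with a POL2 summit had 28.3, 39.7 and 36.4 and then 26.9, 30.4 and 29.8, so members were better placed in each of the 6 libraries. By MYC binding, the median POL2 percentile was 22.8 over the 19 bound genes and 24.7 over the 53 others with POL2. All 6 POL2 libraries had a summit at 10 of the 19 and 23 of the others.

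POL2 summits of members lay a median of 32 to 47 bp from a TSS of the gene, depending on the library, against 55 to 60 bp at other coding genes. Between 93.0% and 100% of them were within 250 bp, against 82.9% to 84.9%. Some of them lay away from the canonical TSS. MRPL18 had its summit between -900 and -886 bp from it in each of the 5 libraries in which it had one, 231 to 245 bp from its nearest own TSS. TCP1, which encodes a chaperonin subunit, starts there on the opposite strand, 865 bp from the canonical TSS of MRPL18, so the summit lies nearer to TCP1 and may belong to that gene. MRPS27 had 2 POL2 summits within 1000 bp of its starts in every library. The better-scored one lay beside an alternative start, 11948 to 11975 bp downstream, in WT replicates 1 and 3 and SLK-KO replicate 2. In the other 3 libraries the better-scored one lay near the canonical TSS. MRPL46 and MRPS11, a pair that start on opposite strands, shared 1 summit in 5 libraries, which cannot be assigned to either gene.

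**Figure D5:**
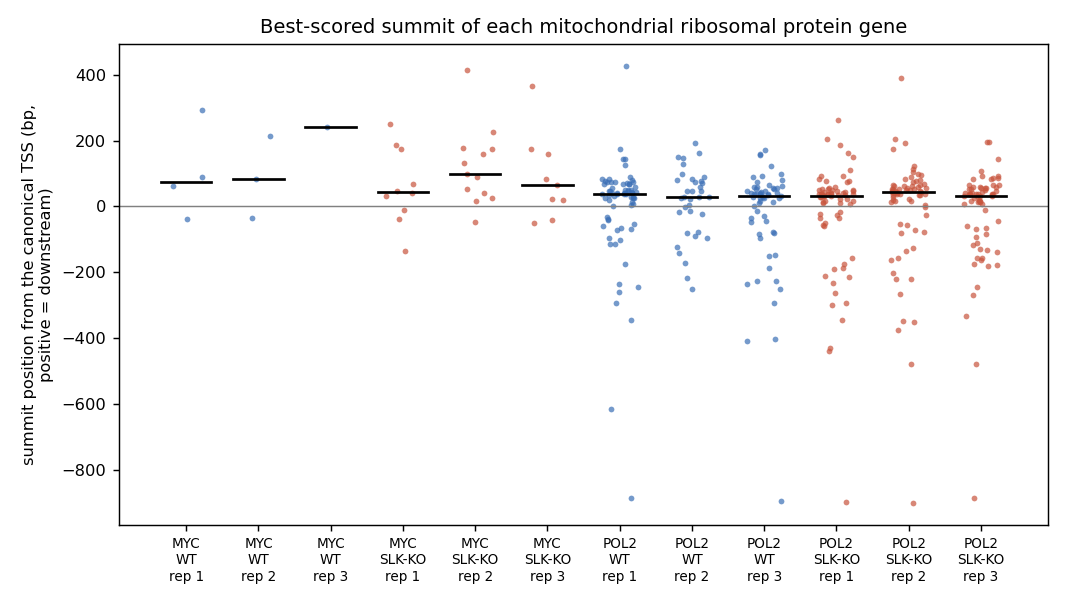
Position of the best-scored summit of each mitochondrial ribosomal protein gene from its canonical TSS (vertical axis, bp, positive is downstream) in each MYC and POL2 library (horizontal axis), with a black bar at the median. Summits more than 1000 bp from the canonical TSS, at alternative starts, are not drawn; the POL2 points lie mostly just downstream of 0.

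Summit positions were compared between genotypes at the 33 members with POL2 in all 6 libraries, with an exact two-sided permutation test per gene over 3615 genes. The ranges did not overlap at 3 members with SLK-KO downstream, or 9.09% of the 33 beside 5.17% of all genes tested, and at 3 with SLK-KO upstream, or 9.09% beside 6.22%. Each had an exact permutation p of 0.1, the smallest that 3 libraries against 3 can give, and a Benjamini-Hochberg adjusted p of 0.877. With so few libraries no shift could have passed, so the test cannot decide whether any of them holds. The 5 largest of these 6 shifts were at MRPS24, MRPL32, MRPL53, MRPL57 and MRPL30, and the sixth member was MRPS30. The MRPS24 summit stood at 37, -23 and 48 bp from the canonical TSS in WT and at -264, -221 and -177 bp in SLK-KO, a mean difference of -241 bp. At MRPL32 it stood at -236, -217 and -225 bp in WT and -58, -201 and 37 bp in SLK-KO, a mean difference of 152 bp, and at MRPL53 at -52, -13 and -29 bp and then 38, 39 and 35 bp, a mean difference of 68.7 bp. The shifts at MRPL57 and MRPL30 were -46.0 and 38.0 bp. MRPL30, MRPL32 and MRPL57 have a coding neighbour on the opposite strand within 162 bp, so a summit there can belong to either gene.

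No POL2 summit was listed near 6 members: MRPL23, MRPL28, MRPL45, MRPS12, MRPS18B and MRPS36. The MRPS36 protein has since been assigned to the 2-oxoglutarate dehydrogenase complex. The nearest POL2 summit of any library was 16938 bp away for MRPL28, 27501 bp for MRPS36, 100918 bp for MRPS12, 183032 bp for MRPL23, 548639 bp for MRPL45 and 2174403 bp for MRPS18B. Promoters of 4 of the 6 have a near-identical copy elsewhere in the reference used here, at 98% identity or more over at least 90% of the bases within 250 bp of the canonical TSS. MRPS18B has it on 6 alternate sequences, MRPL45 and MRPS36 on 1 each, and MRPL23 outside alternate sequences. Members with a copy numbered 4, of which 0 had POL2, and those without 74, of which 72 (97.3%) had it. MRPL28 and MRPS12 have no copy in the reference used here. The part of these copies in the absence of summits was not tested.

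Promoter sequence was searched from 250 bases before to 50 after the canonical TSS, on both strands. CACGTG was in 7 of 78 member promoters, or 8.97%, beside 8.75% of all coding promoters and 9.95% of those of other POL2-bound genes. It was in 0 of the 19 promoters with a MYC summit and in 7 of the 59 without, namely MRPL15, MRPL22, MRPL36, MRPL37, MRPL45, MRPS18C and MRPS36. The E-box under the MRPL3 summits lies past the end of this window. CACGCG was in 15, or 19.2%, beside 15.2% and 19.3%. For NRF1, a known regulator of nuclear genes for mitochondrial proteins, a single exact form of its long motif was searched with no mismatch, unlike the short cores used for the other factors, so other NRF1 sites were not counted. That form was in 1 member, MRPL17, or 1.28%, beside 1.69% and 2.51%.

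Other motifs were more frequent in member promoters. CCGGAAG, the core bound by ETS factors such as GABPA, was in 32 members, or 41.0%, beside 14.1% of all coding promoters and 20.8% of those of other POL2-bound genes. AAGATGGC, the core of the YY1 motif, was in 22, or 28.2%, beside 4.05% and 6.14%. One or both were in 46 members, or 59.0%, beside 17.2% of all coding promoters, and both were in 8. How many promoters of other POL2-bound genes had either motif was not counted. No matches of different motifs overlapped in members. Of the 22 genes with AAGATGGC, 18 had it on their own strand, 17 had it downstream of the TSS, and in 14 its ATG was the annotated start codon. Among all coding genes, 811 had AAGATGGC, of which 604 had it on their own strand and 562 downstream of the TSS. In 328 of the 811 its ATG was the annotated start codon. Members had a median promoter GC content of 59.7%, beside 63.7% of all coding promoters and 66.3% of other POL2-bound ones. A match is a description of sequence, and binding of these factors was not measured.

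Other genes of mitochondrial translation and the cytosolic ribosomal protein genes are given side by side with the members. The former were 47 genes, namely 5 mitochondrial ribosomal proteins with other symbols, 10 translation factors and 32 assembly and RNA factors. MYC was at 1, 0 and 0 of them in WT and 6, 9 and 5 in SLK-KO, or 0.709% ± 1.23 and 14.2% ± 4.43 (SD, n = 3 libraries each). By list, 2 of the 5, 2 of the 10 and 9 of the 32 had MYC in at least 1 library. Those with MYC in at least 2 libraries were DHX30, YBEY, DDX28, MTERF3 and GFM2. DHX30, an RNA helicase of mitochondrial RNA granules, ranked 259 in WT replicate 1 and 444, 357 and 427 in SLK-KO. YBEY, an endoribonuclease of small-subunit maturation, had 0 WT and 3 SLK-KO summits, at ranks 840, 1079 and 806. DDX28, MTERF3 and GFM2 had MYC in 2 SLK-KO libraries each. The 88 cytosolic ribosomal protein genes had MYC at 22, 16 and 14 in WT and 42, 48 and 39 in SLK-KO, or 19.7% ± 4.73 and 48.9% ± 5.21, above the mitochondrial ribosomal protein genes in each of the 6 libraries.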

How the data were processed

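MYC and POL2 ChIP-seq libraries of PC-3 cells, 3 per genotype and antibody, were grouped by the labels. Reads were processed with nf-core/chipseq 2.1.0 on GRCh38.p14, and the tools named include BWA 0.7.18-r1243 and MACS3 3.0.1, per the submitters' processing notes. The control and options used in peak calling are not given in the sources used here. Each deposited list holds the summits of 1 library with a score, read as a −log10 q-value because no list goes below 1.30103, the value for a q of 0.05. Scores were left as the authors gave them and used only for ranking and filtering within a list.

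Summits were assigned to every gene with a GENCODE release 44 TSS within 1000 bp, and distances and ranks were taken from the best-scored one. Positions are signed from the canonical TSS. Sequence came from a GRCh38 reference that holds 58 of the 82 sequence names in the lists. Promoter copies were sought with minimap2 2.31. The library was the unit, n is 3 per group, and ± is the SD. Exact two-sided permutation tests used 20 relabellings, and p-values were adjusted by Benjamini-Hochberg over all genes tested. Python 3.11.15, scipy 1.17.1 and pysam 0.24.0 were used. The counting code was run on simulated data with the patterns and large shifts written in, which checks the code and no result. Members and lists were chosen with earlier results of these data known. Named were the members with MYC in 2 or more libraries (those in 1 by symbol only), the 5 best POL2 ranks among members with POL2 in all 6 libraries, members with no POL2, up to 5 position shifts, and list genes with MYC in 2 or more libraries. Other symbols listed were added after their values were seen. Depth is unknown, so intervals cover counting error over summits only.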

Additional observations from a re-analysis of the deposited data

How the results depend on the processing

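Of 130 recomputed values, 22 moved by more than the spread between libraries (for counts, by over 1.5 times), 1 reversed and 107 did neither. The MYC share of members, SLK-KO minus WT (10.7 points), was 5.98 with scores of at least 5, 4.70 with scores of at least 10 and 1.71 with lists of equal length, and 9.40 to 11.5 with any 1 library left out. The same range for POL2 (19.2 points) was 5.77 to 29.5, and with lists of equal length it was 2.99, moves that are within its wide spread. MYC in 3 SLK-KO and 0 WT libraries was found at 0 members. With scores of at least 5 or at least 10 it was found at 1 member each. With 1 library left out it was found at 0 to 2. At a limit of 5 the member was MRPL4 and at 10 it was MRPL42. Both have a WT summit, scored 3.97 and 9.13, that the limit removed. For POL2 these counts were 1, 1 and 0 to 7, the 7 without WT replicate 1. The share over all POL2-bound genes was not computed in these settings. The MYC share of members minus that of other POL2-bound genes (WT 0.825 points, SLK-KO 4.05 points) reversed to -0.0931 in WT with scores of at least 10, and in WT was 0.167 with lists of equal length and 2.01 against all other coding genes. In SLK-KO it was 5.83 with summits within 250 bp, 2.30 and 2.66 with scores of at least 5 and 10, 2.00 with lists of equal length and 8.63 against all other coding genes. With 1 library left out it was 0.263 to 1.88 in WT and 3.56 to 4.67 in SLK-KO. With other distances to a TSS, score limits or equal lengths, the other POL2-bound genes were chosen again from the POL2 lists of that setting. These differences are therefore against a changed set of genes. The equal-length shares of other genes given earlier, 1.94% in WT and 1.83% in SLK-KO, are over the set from the whole lists. The E-box share at member MYC summits was 50.0% (SD 70.7) in WT with scores of at least 10. That value rests on 1 summit each of MRPL24 and MRPL3. In SLK-KO the E-box share was 14.8%, 25% and 33.3% with scores of at least 5, at least 10 and lists of equal length. With 1 library left out it was 12.5% to 29.2% in WT and 8.85% to 10.0% in SLK-KO. Stricter scores and equal lengths leave fewer summits. The cause of the other changes was not tested.

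The labels number replicates alike in both genotypes. Deviations of summit presence from the genotype mean were correlated between the WT and SLK-KO libraries of 1 number. The correlations were 0.0147, 0.0188 and -0.0203 for MYC and 0.0529, -0.00803 and -0.0157 for POL2. Such values, from presence in lists of unequal length, cannot show whether libraries of 1 number share a batch. With a replicate block the differences were 10.7 points (SD 2.67) for MYC and 19.2 points (SD 24.4) for POL2. Depth is unknown, and the 1 to 13 member summits per MYC list limit every share given for them.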

Other observations

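The link between a near-identical promoter copy and a missing POL2 summit was also seen outside the mitochondrial ribosomal protein genes, and was chosen after the values were seen. Of 811 other protein-coding genes whose promoter has a copy on an alternate sequence of the reference, 12 (1.48%) had a POL2 summit within 1000 bp of a TSS in at least 1 library. Of 552 with a copy only on chromosomes or unplaced sequences, 47 (8.51%) had one, and of 18605 without a copy 57.2% had one. MYC was at 0, 3 and 1913 genes of these classes. The part of the copies in these shares was not tested.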
